A study of Mus musculus with 24 samples.

Results

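The excitatory postsynapse is described here through 41 genes for glutamate receptors, their auxiliary subunits, scaffold proteins, and the calcium-dependent kinases and phosphatases that act on them, in the dorsal hippocampus of 24 mice. The genes were chosen by name: 4 AMPA receptor subunits, 4 AMPA receptor auxiliary proteins, 4 NMDA receptor subunits, 3 kainate receptor subunits, 1 metabotropic receptor, 14 scaffolds, 6 genes of calmodulin signalling, 3 protein kinase C genes and 2 calcineurin genes. They are 41 of the 19661 genes in the deposited table, and all 41 passed the minimum mean of 1 RPKM (reads scaled to transcript length and to library size) that left 12399 genes to test. Each of 4 groups held 6 animals with 1 RNA library per animal. Wild-type mice, labelled C57BL/6J, either stayed in the home cage or were trained in object location memory and killed 30 minutes later. This is a task in which a mouse learns where objects stand in an arena. The other groups, home cage and trained in the same way, were heterozygous for a targeted allele of Actl6b, the gene of the neuronal chromatin remodelling subunit BAF53b, and are called Baf53b+/- here. Their labels name the strain background B6J.129S6-Actl6b<tm1Grc>, so that strain background goes with genotype in every genotype comparison. The sources used here give neither the age nor the part of Actl6b that the allele removes. The labels name no Cre driver, and home cage animals were the only controls for training.

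At excitatory synapses glutamate opens AMPA receptors, which carry most of the fast current, and NMDA receptors, which admit calcium when the membrane is already depolarized. Calcium bound to calmodulin activates the kinase CaMKII and the phosphatase calcineurin, which act in opposite directions on receptor number and conductance. The PSD-95, SAPAP, Shank and Homer scaffolds hold receptors and enzymes together below the membrane, and in hippocampal pyramidal cells and dentate granule cells this machinery is the textbook site of long-term potentiation and depression.

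Both labels held in the checks. In the home cage groups Actl6b averaged 51.3 ± 1.26 RPKM in wild type and 30.0 ± 1.44 in Baf53b+/- animals (SD, n = 6), which is 58.5% of the wild-type level, and the trained groups stood at 50.8 ± 2.65 and 28.3 ± 1.47, or 55.7%. Fos, an early gene of neuronal activity, was 7.56-fold higher after training in wild type and 6.78-fold higher in Baf53b+/- mice. In these 4 comparisons the groups did not overlap, and the two-sided exact permutation p was 0.00216, the smallest that 924 splits allow. The libraries held 28.4 to 46.9 M reads (median 34.5 M). A gene of 2 kb at 1 RPKM then rests on 56.8 to 93.8 reads. In 6 libraries (1, 1, 2 and 2 in the order wild type home cage, wild type trained, Baf53b+/- home cage, Baf53b+/- trained) 15 choroid plexus markers summed to 1571 to 5469 RPKM, against 65.4 to 432 in the other 18. None of the 41 genes differed between those 6 libraries and the rest by limma (0 of 41, against 3.47% of all genes), with 3 at an unadjusted p under 0.05. Ddx3y marked 3, 3, 5 and 3 of 6 animals as male in the same group order. Between the sexes 0 of 41 members differed by limma within groups, against 0.0887% of all genes, with 5 at an unadjusted p under 0.05. For choroid plexus and sex alike, the share of all genes at that unadjusted p was not computed.

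The levels of the 41 genes spanned from the most abundant messages of the tissue to a few RPKM. RPKM is scaled to annotated transcript length, and the annotation used is not known here. Orders, shares and ratios between genes therefore also depend on annotated length and isoforms. Of the 41, 23 lay in the top 10% of the genes tested, and together they held 2.43% of the RPKM. Their median level was 53.8 RPKM, against 9.32 RPKM over all genes tested. There were 14 genes at 100 RPKM or more, 23 between 10 and 100, and 4 below 10. Variation over the 24 animals was small for most of them. The coefficient of variation was under 10% in 32 genes, with a median of 6.73%, against 7.13% over all genes tested. The 9 more variable genes were Camk2d (35.9%), Grin3a (23.2%), Grik1 (19.98%), Grin2b (17.5%), Gria4 (15.9%), Grin2a (14.7%), Homer3 (13.2%), Grik4 (11.2%) and Camk2b (10.1%).

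**Figure D1:**
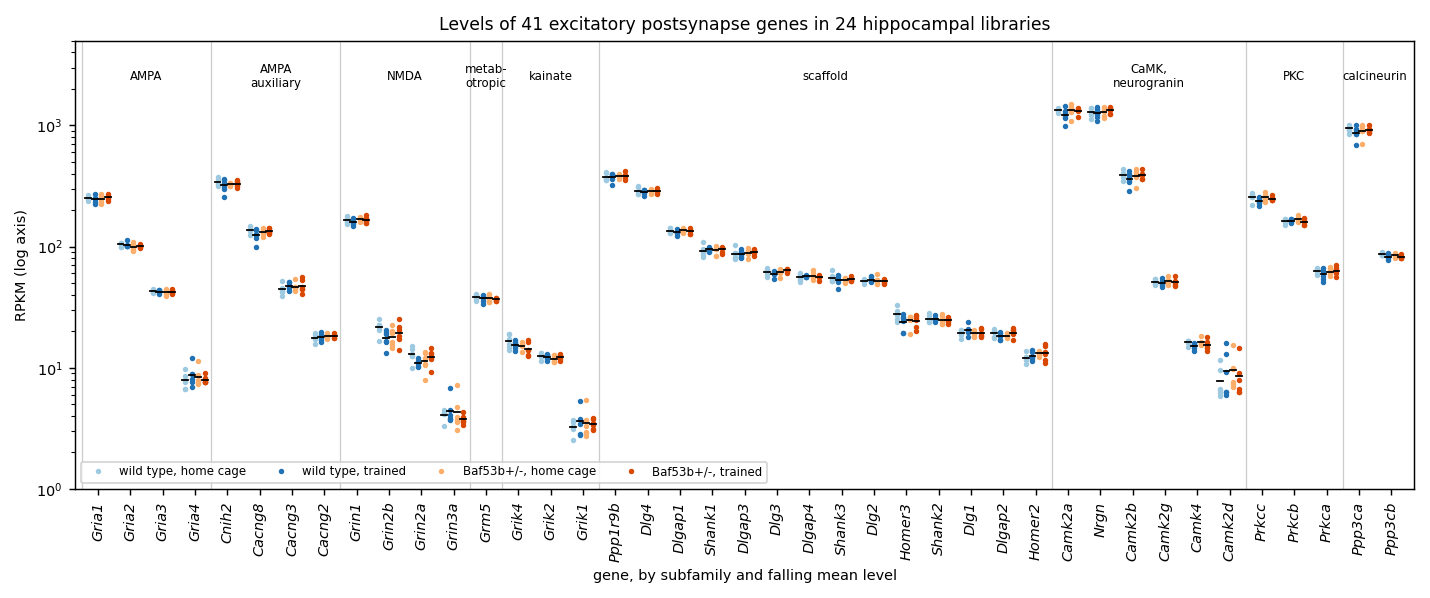
RPKM of the 41 genes on a log axis, by subfamily (columns) with 1 point per animal and a bar at each group's mean. Camk2a and Nrgn stand highest, at means of 1304 and 1295 RPKM, Grik1 and Grin3a lowest, at 3.45 and 4.16 RPKM, and the 4 groups of every gene overlap.

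AMPA receptor subunit genes were ordered the same way in every animal. Gria1 (chr11:56825120-57143746, mm9, as deposited), which encodes GluA1, averaged 251 RPKM over the 24 animals and made up 62.1% of the summed AMPA subunit RPKM. Gria2, whose edited product keeps the channel from passing calcium, averaged 102 RPKM (25.3% of the sum). Gria3 on chromosome X averaged 42.5 RPKM (10.5%) and Gria4 8.27 RPKM (2.05%). The ranges of neighbours in this order did not overlap. Within groups Gria1 ran from 238 to 269 RPKM (median 253) in wild-type home cage animals and from 225 to 270 (median 248) after training. In Baf53b+/- animals it ran from 223 to 273 (median 252) in the home cage and from 238 to 274 (median 256) after training. Gria2 spanned 99.5 to 107 (median 106), 100 to 112 (101), 92.1 to 110 (99.4) and 98.1 to 105 (100.2) RPKM in the same group order. The 4 ranges overlapped for both genes.

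Among the auxiliary proteins, which set the trafficking and gating of AMPA receptors, Cnih2 (the cornichon CNIH2) led with 329 RPKM. Cacng8, the TARP γ-8 that is typical of hippocampus, averaged 132 RPKM, Cacng3 46.5 and Cacng2 (stargazin) 18.1. Each gene was above the next in all 24 animals and their ranges did not overlap. Cacng8 ran from 125 to 147 RPKM (median 136) in wild-type home cage animals and from 99.4 to 140 (median 126) after training, where the lowest value belonged to animal 2421. In Baf53b+/- animals it ran from 120 to 142 (median 133) in the home cage and from 126 to 143 (median 131) after training.

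The obligatory NMDA receptor subunit gene Grin1 averaged 165 RPKM, far above the genes of its partners on this scale, with the caution on length given above. Grin2b (chr6:135679823-136123529, mm9), for GluN2B, averaged 19.2 RPKM and Grin2a (chr16:9577803-9992626), for GluN2A, 11.9 RPKM. Grin2b was above Grin2a in 24 of 24 animals, although their ranges over animals overlapped. Grin3a, for the modulatory subunit GluN3A, averaged 4.16 RPKM. Grm5, the metabotropic receptor mGlu5 that signals through Gq and calcium stores, averaged 37.4 RPKM, with group means between 36.6 and 38.3. Of the kainate receptor genes, Grik4 averaged 15.5 RPKM, Grik2 12.3 and Grik1 3.45. Grik4 stood above Grik2 in 24 of 24 animals with overlapping ranges, and Grik1 lay below both without overlap.

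Ppp1r9b (spinophilin, which ties protein phosphatase 1 to spine actin) at 379 RPKM and Dlg4 (PSD-95) at 287 RPKM led the scaffolds. Dlgap1 (a SAPAP protein that links PSD-95 to Shank) followed at 134 RPKM. Shank1 (93.5 RPKM) and Dlgap3 (88.7) were in that order in 22 of 24 animals. Dlg3 on chromosome X (61.8), Dlgap4 (56.5), Shank3 (53.8) and Dlg2 (52.4) formed a band in which neighbours overlapped, the last pair being in that order in 16 of 24 animals. Homer3, which couples mGlu5 to Shank, and Shank2 were in that order in 15 of 24 animals, with 25.2 and 25.1 RPKM. Dlg1 (19.6), Dlgap2 (18.9) and Homer2 (12.8) were the lowest scaffolds.

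Camk2a and Nrgn ranked 2 and 3 among all genes tested. Camk2a, the α subunit of CaMKII, averaged 1304 RPKM and Nrgn (neurogranin, which binds calmodulin at low calcium) 1295 RPKM, and Camk2a was the higher in 12 of 24 animals, so that these genes have no order. Ppp3ca, the main catalytic subunit gene of calcineurin, averaged 912 RPKM and ranked 11. It stood 10.8-fold above Ppp3cb (84.2 RPKM) on the scale of means. The β subunit gene Camk2b averaged 383 RPKM, Camk2g 51.2 and Camk2d 8.80. Camk4, a nuclear kinase that phosphorylates CREB, averaged 15.8 RPKM. Of the protein kinase C genes Prkcc averaged 250.1 RPKM, Prkcb 164 and Prkca 62.0, in that order in every animal and without overlap.

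The comparison of training in wild type sets these messages 30 minutes after training against those of home cage animals. Learning cannot be told apart here from the rest of the training session. No member passed (0 of 41 higher and 0 of 41 lower by limma with Benjamini-Hochberg adjustment over 12399 genes), while 1.08% of all genes did. At an unadjusted p under 0.05 there were 5 of 41 members (12.2%), against 11.1% of all genes, and no member had groups without overlap, against 1.24% of all genes. The differences were negative in 28 of 41 members (68.3%, against 43.0% of all genes), with a median log2 difference of -0.03 beside 0.01 over all genes. The 95% interval lay within 1.2-fold for 29 members and within 1.5-fold for 40. These intervals bound how large a change the data leave room for, at the level of whole dorsal hippocampus.

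The 5 members with an unadjusted p under 0.05 all had negative differences, and they are named because of that p. Cacng8 differed by -0.15 (log2, SE 0.06, adjusted p = 0.350), Grin2b by -0.29 (SE 0.13, adjusted p = 0.423) and Homer3 by -0.22 (SE 0.10, adjusted p = 0.439) by limma. Prkcc (-0.11) and Ppp3cb (-0.07) differed by less, with limma adjusted p of 0.431 and 0.398. Ppp3cb ran from 84.9 to 90.8 RPKM (median 85.8) in the home cage and from 76.8 to 89.2 (median 82.7) after training. Prkcc ran from 222 to 276 (median 261) and from 218 to 258 (median 237) RPKM, and Homer3 from 23.9 to 33.1 (median 27.4) and from 19.5 to 28.0 (median 25.1). Trained animals thus sat lower in the middle of the range but overlapped the home cage animals for each gene. The trained wild-type group also held a library, animal 2421, with the lowest wild-type level of dentate gyrus markers. Without it and its counterpart in the Baf53b+/- home cage group, animal 2415, the Cacng8 difference was -0.09 and that of Prkcc -0.08. Those of Homer3, Ppp3cb and Grin2b were then -0.16, -0.05 and -0.33.

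**Figure D2:**
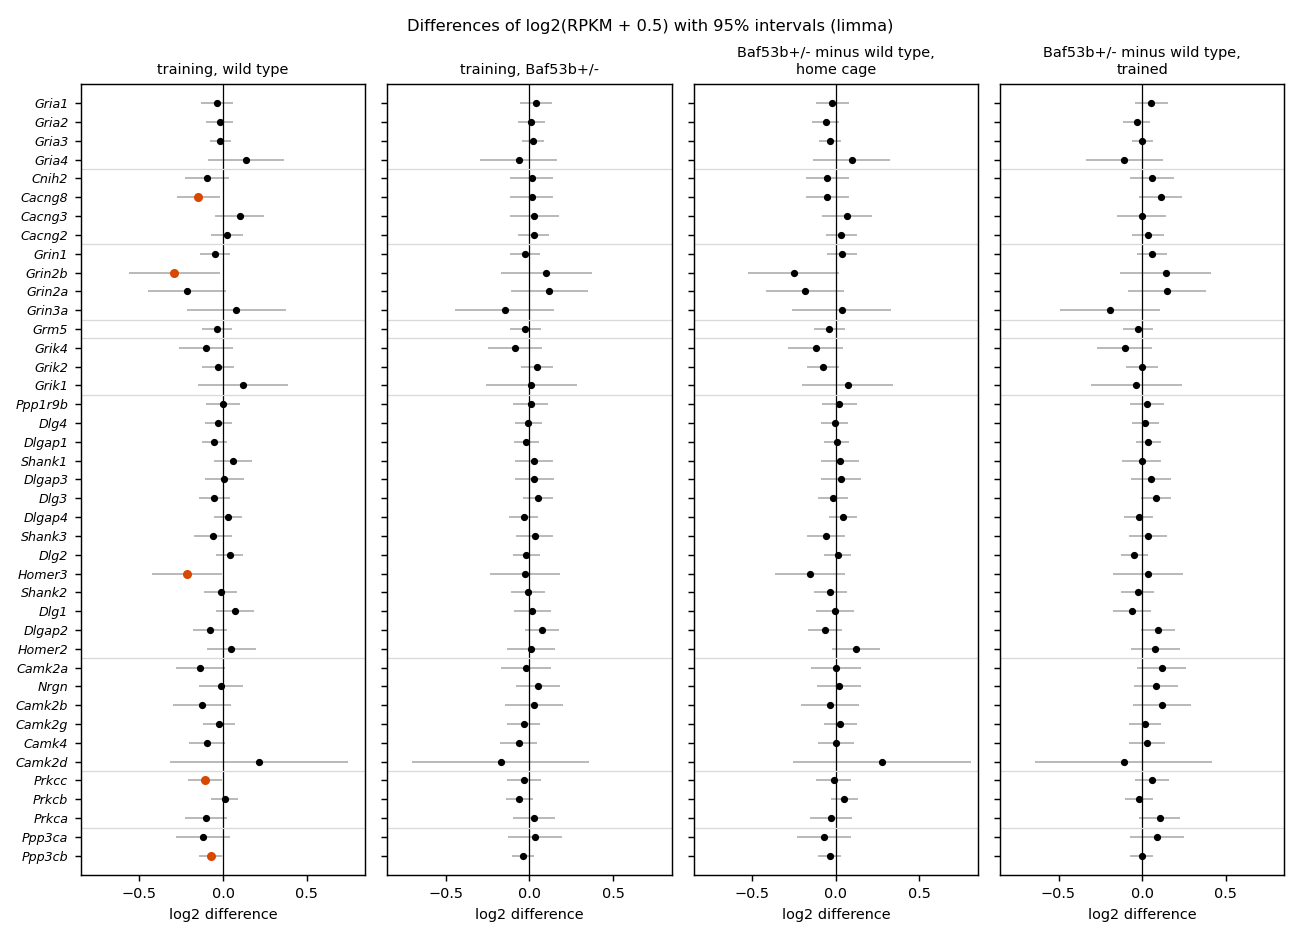
Log2 differences (points) with 95% intervals (lines) from limma for the 41 genes in 4 comparisons, with genes in subfamily order and unadjusted p under 0.05 in orange. The 5 orange points are in the training comparison of wild type, and no gene passed after adjustment in any panel.

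In Baf53b+/- animals training moved the members by a median of 0.01 on the log2 scale, with 23 positive and 18 negative differences. Of the 41, 0 passed by limma, 0 had an unadjusted p under 0.05 and 0 had groups without overlap, while 1.03% of all genes passed, 10.99% had an unadjusted p under 0.05 and 1.33% had groups without overlap. The most negative difference was that of Camk2d (-0.17) and the most positive that of Grin2a (0.12). The interval lay within 1.2-fold for 35 members. Averaged over both genotypes, training again gave 0 of 41 calls by limma, where 4.17% of all genes passed. In that average 2 members (4.88%) had an unadjusted p under 0.05, a smaller share than the 16.8% of all genes. They were Ppp3cb (-0.06, limma adjusted p = 0.193) and Camk4 (-0.08, limma adjusted p = 0.270). The interval of the averaged difference lay within 1.2-fold for 38 of 41 members and within 1.5-fold for 41.

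Genotype did not separate the groups of any member. In the home cage 0 of 41 members passed by limma (0 with an unadjusted p under 0.05), where 0.00807% of all genes passed, which is 1 gene, Actl6b. No member had groups without overlap, against 0.0565% of all genes. After training the counts were again 0 of 41 by limma and 0 at an unadjusted p under 0.05, with 0.00807% of all genes called, and 0 without overlap against 0.226% of all genes. The median member difference was -0.01 in the home cage and 0.03 after training on the log2 scale. Averaged over conditions 0 of 41 passed by limma and 0 had an unadjusted p under 0.05, against 0.0242% of all genes called, and the interval lay within 1.2-fold for 39 members. The largest averaged differences were those of Grik4 (-0.11) and Homer2 (0.10), neither of which passed. Camk2a, for example, stood at 1335 ± 38.8 RPKM in wild-type and 1342 ± 140 RPKM in Baf53b+/- home cage animals (SD, n = 6). Dlg4 stood at 289.6 ± 17.7 and 288 ± 8.92 RPKM.

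The interaction asks whether the response to training differs between genotypes. It gave 0 of 41 calls by limma, and 0% of all genes passed. An unadjusted p under 0.05 was found for 3 of 41 members (7.32%, against 2.49% of all genes). They were Grin2b (0.39 on the log2 scale), Grin2a (0.33) and Dlgap2 (0.16), each with a limma adjusted p of 0.985. Grin2b ran from 16.7 to 25.3 RPKM (median 22.1) in wild-type home cage animals and from 13.2 to 20.6 (median 17.8) after training. In Baf53b+/- animals it ran from 14.7 to 22.6 (median 17.9) in the home cage and from 13.9 to 25.1 (median 19.5) after training. Grin2a spanned 9.98 to 15.1 (median 12.8), 10.1 to 12.1 (11.03), 7.90 to 13.6 (11.5) and 9.28 to 14.6 (12.5) RPKM in the same group order. Wild-type home cage animals had the highest medians of both genes, and every pair of groups overlapped. These genes are not separate observations, since 4 of the 6 lowest and 4 of the 6 highest libraries of Grin2a were also those of Grin2b. With the dentate gyrus marker score as a covariate the interaction of Grin2a was 0.20, that of Grin2b 0.34 and that of Dlgap2 0.12. Over the alternative settings the unadjusted limma p of each gene rose above 0.05 at its highest. It reached 0.147 for Grin2a, 0.0981 for Grin2b and 0.0999 for Dlgap2.

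**Figure D3:**
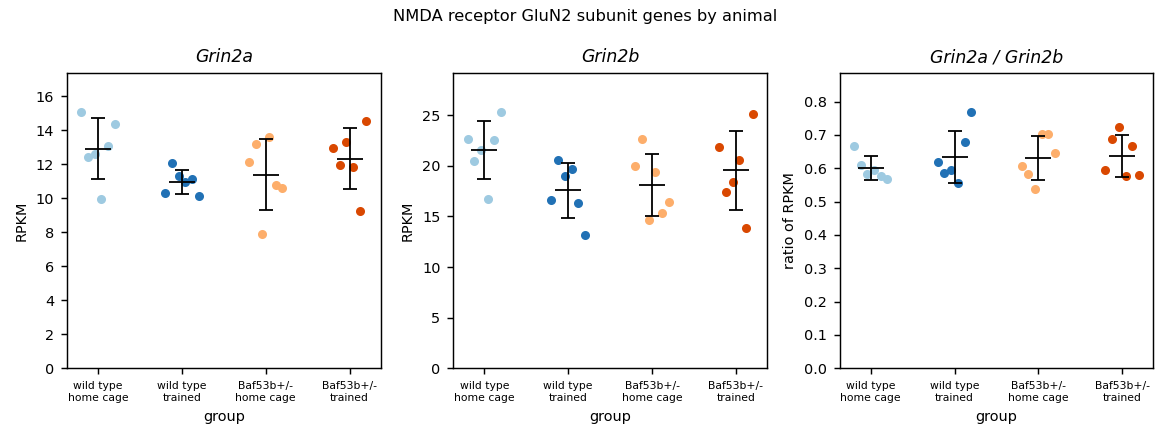
RPKM of Grin2a and Grin2b and their ratio, 1 point per animal, with the mean and SD (n = 6) of each group in black. Points of all 4 groups overlap in each panel, and the group means of the ratio lie between 0.600 and 0.638.

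Subunit ratios within a library, which cancel a shift common to both genes, are given as a description. The Grin2a to Grin2b ratio, often used as an index of NMDA receptor maturity, was 0.600 ± 0.0355, 0.634 ± 0.0783, 0.630 ± 0.0659 and 0.638 ± 0.0628 (SD, n = 6) in the group order used above. Gria1 to Gria2 was 2.42 ± 0.0558, 2.39 ± 0.0917, 2.49 ± 0.114 and 2.54 ± 0.0783. Camk2a to Camk2b, the ratio of the CaMKII α and β genes, was 3.41 ± 0.220, 3.38 ± 0.111, 3.49 ± 0.147 and 3.39 ± 0.257. Ppp3ca to Ppp3cb was 10.9 ± 0.591, 10.5 ± 0.890, 10.7 ± 1.05 and 11.2 ± 0.481. The groups overlapped for these 4 ratios. The ratio of Dlg4 to Dlg3 (the genes of PSD-95 and of its relative SAP102) was 4.67 ± 0.296, 4.73 ± 0.0517, 4.71 ± 0.388 and 4.52 ± 0.0988, and here the trained groups did not overlap. Trained wild types ran from 4.67 to 4.81 and trained Baf53b+/- animals from 4.35 to 4.63, while both home cage groups spanned a wider range, 4.31 to 5.05 and 4.28 to 5.33. Neither gene passed on its own after training, and the background over other gene pairs was not computed. By the limma slopes on the dentate gyrus marker score described below, that of Dlg3 passed (0.24) and that of Dlg4 did not (0.06). Median scores were 3.91 in trained wild types and 4.07 in trained Baf53b+/- animals. The part of the score in this ratio was not tested.

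A further 70 genes of the same pathway were listed by role: other glutamate receptors, other auxiliary and trafficking proteins, other scaffolds and spine regulators, and other calcium-dependent enzymes. Of these, 68 symbols were in the table and 67 were tested, since Grin3b averaged 0.207 RPKM. In the averaged training comparison 1 of 67 passed, in the lower direction, where 4.17% of all genes passed in either direction, so that the list holds no more calls than the background. In each of the other 6 comparisons 0 of 67 did by limma. At an unadjusted p under 0.05 there were 7 for training in wild type and 5 in Baf53b+/-, against 11.1% and 10.99% of all genes. For genotype there was 1 in the home cage and 1 after training, against 3.52% and 3.69% of all genes. The interaction had 2, against 2.49%, and genotype averaged over conditions had 8, against 4.49%. The gene that passed was Nlgn1, for the postsynaptic adhesion protein neuroligin 1, which binds neurexins across the cleft. It ran from 18.2 to 19.5 RPKM (median 18.7) in the home cage and from 15.3 to 19.2 (median 17.0) after training in wild type. In Baf53b+/- animals it ran from 17.8 to 19.6 (median 18.3) and from 15.5 to 17.9 (median 16.9). Of the trained animals, 4 of 6 wild types and 5 of 6 Baf53b+/- animals lay below the lowest home cage animal of their genotype. The averaged log2 difference was -0.13 (SE 0.03, limma adjusted p = 0.0172), a call that was kept in 36 of 36 alternative settings. Among the receptors the smallest p was that of Grid1, for the delta receptor GluD1, with an averaged difference of -0.07 (limma adjusted p = 0.0702). Ppp3cc, the remaining calcineurin catalytic gene, differed by -0.06 (limma adjusted p = 0.108).

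While 0 members were called between the study's groups, a library measure outside the design, the level of dentate gyrus markers, went with many of them. The dentate score of a library is the mean log2 level of 8 markers of that region, among them Prox1 and C1ql2. The markers summed to 80.2 to 201 RPKM over the 24 animals, and none was at 0 in any library. By group the score ran from 3.55 to 4.16 (median 4.06), 3.45 to 4.22 (3.91), 2.99 to 4.12 (3.98) and 3.77 to 4.19 (4.07) in the order used above, so the groups overlapped. For each gene a slope on this score was fitted within groups by limma, a test added after the members' values and the scores had been seen. In bulk tissue, fewer cells of a type and less RNA per cell cannot be told apart.

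The slope passed for 18 of 41 members (43.9%), against 18.0% of all genes. Of these, 10 rose with the score, against 8.44% of all genes, and 8 fell, against 9.57%. The genes with positive slopes include those of the CaMKII α and β subunits, calcineurin and GluA1. Per unit of the score Camk2b differed by 0.47 on the log2 scale (SE 0.06, limma adjusted p = 3.7e-06), Ppp3ca by 0.45 (SE 0.05) and Camk2a by 0.39 (SE 0.05). Grin2a (0.44), Homer3 (0.43), Cacng8 (0.27), Nrgn (0.26), Dlg3 (0.24), Gria1 (0.21) and Gria2 (0.15) also rose with the score. The 8 genes that fell with the score include Camk2d, Grin3a, Grik1 and Gria4, each the lowest gene of its subfamily in mean level. Camk2d, the δ subunit of CaMKII, had the steepest slope, -1.31 (SE 0.20, limma adjusted p = 7.6e-05). Grin3a (-0.75), Grik1 (-0.69) and Gria4 (-0.62) followed, and Cacng3 (-0.32), Dlg1 (-0.19), Dlg2 (-0.18) and Dlgap4 (-0.15) had shallower slopes. Families were thus split. Camk2a and Camk2b had positive slopes and Camk2d a negative one, Gria1 and Gria2 positive and Gria4 negative, Grin2a positive and Grin3a negative, and Cacng8 positive and Cacng3 negative.

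Single libraries show the size of these differences. Animal 2415 (Baf53b+/-, home cage), with the lowest score, had 15.5 RPKM of Camk2d, 1088 of Camk2a and 701 of Ppp3ca. Animal 2421 (wild type, trained), with the next lowest, had 16.0, 992 and 695 RPKM of the same genes. Animal 2433 (wild type, trained), with the highest score, had 5.98, 1433 and 1010 RPKM. Camk2d was therefore highest, and Camk2a and Ppp3ca lowest, in the same pair of animals, which belong to different genotypes and conditions.

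**Figure D4:**
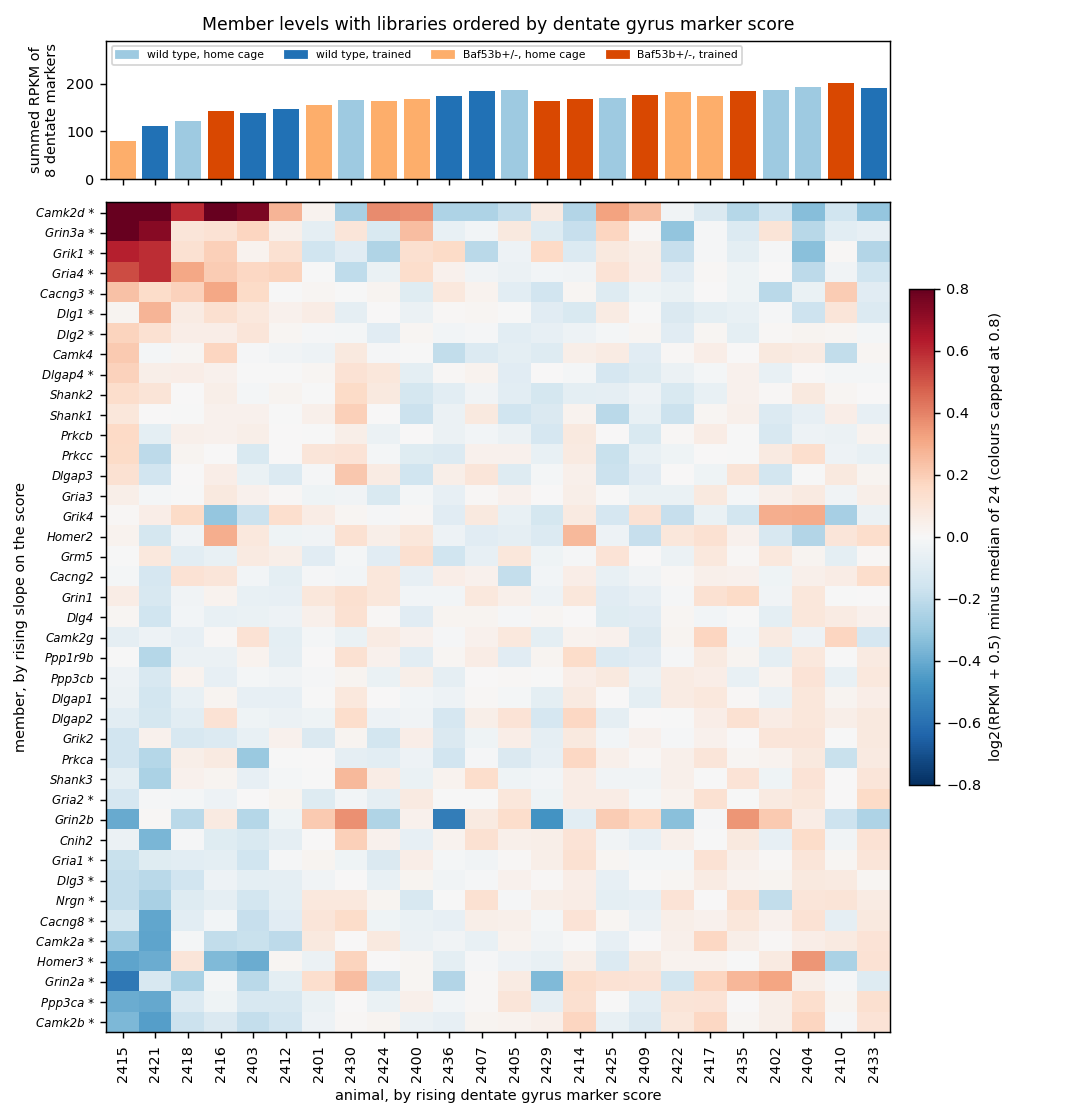
Upper panel, summed RPKM of 8 dentate gyrus markers per animal, coloured by group; lower panel, each gene's log2(RPKM + 0.5) minus its median over the 24 animals, with animals in order of the dentate score and genes in order of slope (asterisk, slope passed). Camk2d, Grin3a, Grik1 and Gria4 are high at the left, where animals 2415 and 2421 stand, and Camk2b and Ppp3ca are low there.

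The 2 animals just named carry part of the count. Without them the slope passed for 8 of 41 members (19.5%), against 3.55% of all genes, with 5 that rose (2.17% of all genes) and 3 that fell (1.38%). All 18 slopes kept their sign, and the 8 that passed were among the 18. They were Camk2a (0.35), Camk2b (0.50), Ppp3ca (0.38), Dlg3 (0.28), Gria1 (0.30), Camk2d (-1.84), Gria4 (-0.64) and Cacng3 (-0.47). The other 10 did not pass without them. Of these, Grin3a (-0.36 without the pair, -0.75 with it) and Grik1 (-0.47 and -0.69) had clearly smaller slopes, with limma adjusted p of 0.300 and 0.175. Homer3 (0.35 and 0.43), Dlg2 (-0.14 and -0.18) and Dlgap4 (-0.14 and -0.15) had somewhat smaller ones. The slopes of Grin2a (0.43 and 0.44), Cacng8 (0.26 and 0.27) and Nrgn (0.26 with and without) were nearly as before, and those of Gria2 (0.21 and 0.15) and Dlg1 (-0.29 and -0.19) were larger. Standard errors were larger with fewer libraries and a narrower range of scores, for example 0.21 against 0.12 for Grin2a. Leaving out each animal in turn gave 14 to 20 members, against 9.12% to 18.5% of all genes. Of the 18, 12 passed in all 24 such fits. The lowest count, 14 (34.1%), came without animal 2415, where 5 of the 18 no longer passed and the share of all genes was 9.12%. Without it the slopes were 0.43 for Homer3, 0.17 for Gria2, -0.16 for Dlg2 and -0.12 for Dlgap4, close to those above, and 0.31 for Grin2a. Under quantile normalization the count stayed at 18, against 17.2% of all genes. Nrgn (0.08, limma adjusted p = 0.502) and Camk2a (0.23, limma adjusted p = 0.0765) no longer passed there.

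**Figure D5:**
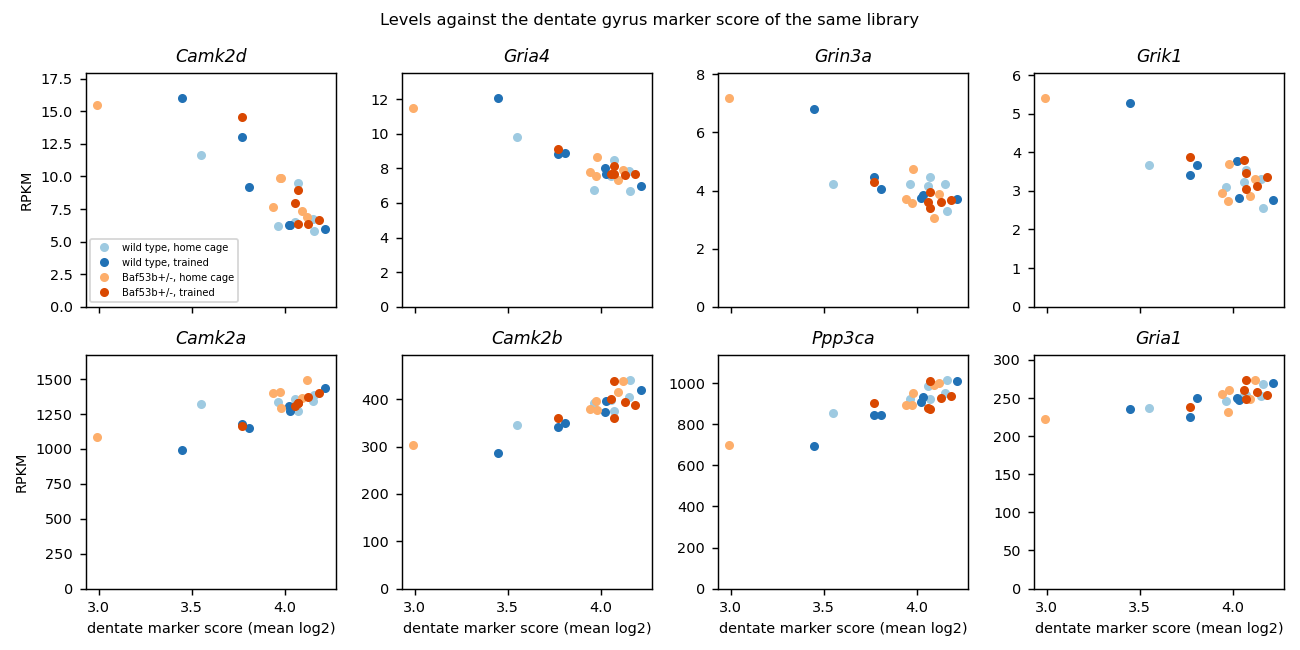
RPKM of 8 genes against the dentate gyrus score of the same library, 1 point per animal, coloured by group. Camk2d, Gria4, Grin3a and Grik1 are higher in the 2 animals with the lowest scores, and Camk2a, Camk2b and Ppp3ca lower. A slope common to the 4 groups was fitted for each gene, and trends in single groups were not tested.

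Some other regional and cell type markers also had slopes on the dentate score that passed, where 8.44% of all genes rose and 9.57% fell. With 5 to 15 markers in a list, a count of 1 or 2 is little more than these shares give. By the same limma slopes 3 of 6 CA1 markers and 3 of 8 interneuron markers fell with it and 0 rose, with median slopes of -0.36 and -0.28. Of 6 CA3 markers 2 rose and 1 fell, and of 6 pan-neuronal markers 1 rose and 3 fell. For astrocytes, oligodendrocytes and microglia 0 markers passed in either direction (0 of 6, 0 of 6 and 0 of 5), and for thalamus 0 of 5. Of 15 choroid plexus markers 0 passed, but their slopes were positive in each (0.64 to 3.57, median 1.13), beside a median of 1.08 for the dentate markers that make up the score. Endothelial and mural markers fell in 2 of 6 and striatal markers in 1 of 5. CA1 markers summed to 196 to 324 RPKM over the 24 animals, interneuron markers to 1047 to 1426 and CA3 markers to 372 to 528, with none at 0 in any library. The part of these markers in the members' slopes was not tested.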

How the data were processed

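The authors deposited 1 table of RPKM values, gene by animal, with mm9 positions. Per the labels' protocols the libraries (TruSeq v2, no strand kept, 4 pools with all groups on each flow cell) were sequenced single-end. CASAVA 1.8.2 and Bowtie 0.12.8 are named in the submitters' processing notes. The sources used here give neither the annotation, nor the treatment of reads that match several genes, nor the pool of each animal. Subunit genes of 1 family, and overlapping genes, may therefore share reads.

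Depth was recovered from single-exon genes of at most 30 reads: at the total chosen, values came within 0.05 reads of a whole number for 47.4% to 56.6% of them (median over the totals tried, at most 8.6%). The values are RPKM, so no count test was used.

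log2(RPKM + 0.5) was fitted with limma 3.58.1 (R 4.3.3; trend and robust empirical Bayes; 4 groups in 1 model) for the 12399 genes averaging at least 1 RPKM. Calls had a Benjamini-Hochberg adjusted p under 0.05 over all of them. Differences, slopes and the fold limits of intervals are on the log2(RPKM + 0.5) scale. The Fos folds and the Actl6b percentages are ratios of mean RPKM. A positive difference means higher after training, higher in Baf53b+/-, or, for the interaction, a larger response in Baf53b+/-. The fit was tested on simulated data. Levels were summarised in Python 3.11.15. Any of the 41 members could be named, with Actl6b and Fos as checks, and of the other pathway genes those that passed and up to 2 per list by p. The members and lists were chosen with earlier results of these data known. Slopes on 3 library measures (dentate score, choroid-rich library, sex) were added after the values were seen. Labels do not say that animals are littermates, and p-values measure the spread between these animals.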

Additional observations from a re-analysis of the deposited data

Results flagged for a closer look

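In 12 of 164 groups of 6 (41 genes in 4 groups) the highest or lowest animal stood apart from the other 5 by a gap of over 0.625 of the group's range, where chance gives about 1 in 20. That rate is for independent, normal values, which genes of 1 library are not, and the share over all genes is not given here. Of the 12, 7 belong to animal 2415 (Baf53b+/-, home cage), the library with the lowest dentate gyrus score. It was highest of its group for Gria4 (11.5 RPKM), Grik1 (5.40), Cacng3 (53.9), Camk2d (15.5) and Camk4 (18.3), and lowest for Homer3 (19.1) and Ppp3ca (701). Animal 2416 (Baf53b+/-, trained) was highest for Gria4 (9.11 RPKM) and Camk2d (14.6). Animal 2421 (wild type, trained) was highest for Grin3a (6.81 RPKM), and animal 2404 (wild type, home cage) lowest for the same gene (3.28). Animal 2433 (wild type, trained) was highest for Gria2 (112 RPKM). Animals 2415, 2421 and 2416 hold 3 of the 4 lowest dentate scores, and 2433 the highest.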

How the results depend on the processing

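In the 7 comparisons 0 of the members tested passed by limma under each of 37 settings (36 for the interaction and averages). These were pseudocounts of 0.1 and 1, no filter and a filter at 5 RPKM, median-of-ratios scaling, quantile normalization and plain empirical Bayes. Others were dentate, choroid and sex covariates, and only the compared groups. The rest left out the choroid-rich libraries, the 2 libraries farthest from the median dentate score, or each animal in turn. The filter at 5 RPKM left Grin3a (mean 4.16 RPKM) and Grik1 (3.45) untested, and the other settings tested all 41. The smallest limma adjusted p of any member was 0.0509, in the averaged training comparison. Of 10482 such member values, 509 changed sign, and none of these passed. The number of members whose dentate slope passed was 8 without the 2 farthest libraries, against 3.55% of all genes. It was 14 to 20 without each animal in turn, against 9.12% to 18.5% of all genes. No other setting moved the number of members by more than 1. Dlg1 lost its slope call most often, in 5 of 24 such fits and without the choroid-rich libraries (-0.20, limma adjusted p = 0.0534). Where the 2 libraries were left out, fewer samples and a narrower range of scores remained; the cause of other lost calls was not tested. No paired analysis was possible because the replicate numbers are animal numbers and each occurs in 1 group. With 6 animals a group the median interval half-width was 0.11 (log2) within a genotype. At the lowest depth 1 RPKM rests on 56.8 reads for a 2 kb gene. Pool and strain background could not be fitted.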

Other observations

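Of the 67 further pathway genes tested, 14 had a slope on the dentate score that passed upward and 13 downward, where 8.44% and 9.57% of all genes did. The calls were 2 up and 4 down among 12 receptors, 0 and 4 among 15 auxiliary and trafficking genes, 6 and 2 among 20 scaffolds and 6 and 3 among 20 calcium-dependent enzymes.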
